A study of Mus musculus with 38 samples.

Results

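The genes described here are the translation initiation and elongation factors of the mouse, taken as the 60 of 21705 genes in the table whose symbols start with Eif1 to Eif6, Eef1 or Eef2. The pattern matched 66 symbols, from which the Eif2ak kinases, Eif2s3x, Eif2s3y and pseudogenes were left out. Of the 60 genes, 8 matched by name but have another role: Eef1e1, Eef2k, Eif1ad, Eif4a3, Eif2c1, Eif2c2, Eif2c3 and Eif2c4. They are included wherever translation factors are counted below. RNA was sequenced from 38 libraries of renal tumour models in which a doxycycline (Dox) inducible MYC transgene was driven in the kidney tubule. The 10 groups were 3 tumour types with 3 libraries each, 5 normal kidneys, and 1 cell line from each tumour type grown with or without Dox, with 4 libraries each. MYC mice and MYC cells carry the labelled genotype MYC+ (Ksp-rtTA; Tet-O-MYC), with the Ksp-cadherin promoter directing expression to renal tubule cells. VM mice and cells carry Vhl-/- with MYC+, with Vhl deleted by a Cre recombinase under the same promoter, and VIM mice and cells also carry a germline loss of Ink4a/Arf. All tumours were labelled as maintained on Dox, whereas normal kidneys were wild type, given vehicle, and bore B6 (2 libraries) or KT (3 libraries) in their titles. Ages were not given in the labels. Tumours and kidneys therefore differed in genotype, Dox and tissue at once, and these cannot be told apart. Each cell line came from 1 tumour, and nothing in the labels says that its 4 libraries per condition were separate cultures, so p-values on the cells measure the spread between these samples, which may be technical. MYC cells bear the mouse number of libraries 2 and 3 of the MYC tumours. The VM line sequenced in the paper bears that of library 2 of the VM tumours, so cells and tumours were not all from separate mice.

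Translation of an mRNA starts when eIF4E in the eIF4F complex binds the cap, eIF4A unwinds the leader with help from eIF4B and eIF4H, and eIF4G bridges to eIF3 on the small ribosomal subunit. eIF2 brings the initiator methionyl-tRNA and is recharged with GTP by eIF2B, eIF1, eIF1A and eIF5 govern the choice of the start codon, and eIF5B and eIF6 act on the joining of the subunits. The eEF1 proteins then deliver each aminoacyl-tRNA, eEF2 moves the ribosome by a codon, and eIF5A helps it past difficult peptide bonds. Genes of ribosome synthesis and translation are well known targets of MYC, which binds DNA with MAX at the E-box CACGTG.

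Several libraries need a remark before the results. Libraries 2 and 3 of the MYC tumours came from the same mouse and were averaged in every test, which leaves 2 mice, although their Cdkn2a levels were 2872 and 59.3 units. The labels of the cells were checked on the engineered genes. Vhl stood at 433 to 543 units in MYC cells and at 8.32 to 38.8 in VM and VIM cells, and Cdkn2a, which encodes the Ink4a and Arf products, at 3056 to 5701 units in MYC and VM cells and 24.9 to 40.8 in VIM cells. The mouse Myc gene was lower with Dox, at 338 to 699 units against 1308 to 1868 without. The sources used here do not state the species of the transgene, so this gene does not check the Dox labels. Library 3 of the VIM tumours stood apart in the genes described here, and its values are given where they bear on a result. Estimated depth was 8.22 to 36.6 M reads per library with a median of 15.2 M. The floor of 3 reads corresponded to 1.16 to 5.65 units, where a unit is the authors' value scaled to an upper quartile of 1000 in each library. Floors cover counting error only. Of the 60 genes, 57 were above the floor in all 38 libraries. Eif4e1b, a cap-binding paralogue of the oocyte, was at or under it in every library, Eef1a2 was above it in 3 libraries and Eif4ebp3 in 25.

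Translation factors took a larger share of all units with Dox than without in each line. The share was 3.13 to 3.25% in MYC cells with Dox and 2.31 to 2.36% without. In VM cells it was 3.06 to 3.17% with Dox and 2.08 to 2.14% without, and in VIM cells 2.999 to 3.051% with Dox and 1.99 to 2.02% without. No library without Dox reached the range of the libraries with it. Normal kidney had the lowest share, 1.13 to 1.27%, and tumours the highest, with 3.26 to 3.62% in MYC, 3.41 to 3.71% in VM and 3.28 to 5.08% in VIM tumours. The upper end of the VIM range was library 3. A share depends on what else is in the library, and the 10 most abundant genes took 8.05 to 13.6% of the units in kidney against 3.66 to 8.31% in all other libraries.

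**Figure D1:**
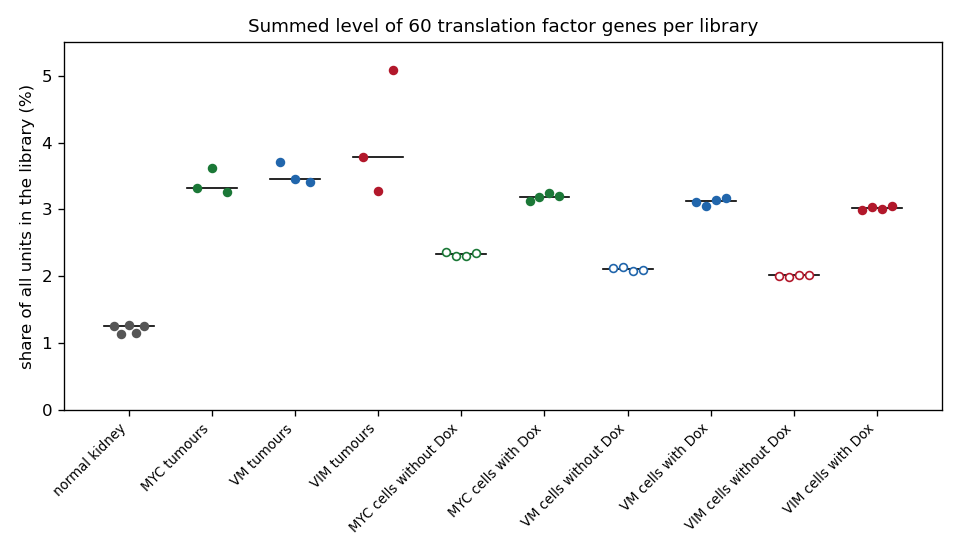
The translation factor share of all units (percent, vertical axis) for each library (points) of the 10 groups, with the group median as a line and cells without Dox as open points. Cells with Dox lay between 2.999 and 3.249%, cells without Dox between 1.99 and 2.36%, and normal kidney between 1.13 and 1.27%.

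Other features of the samples also differed between these groups, and not all in the order of the shares. VIM tumours, whose share reached 5.08%, summed to 1970 to 6560 units for the 2 genes of dividing cells given next. The summed level of Mki67 and Top2a, genes of dividing cells, was 13042 to 18261 units in the cells with Dox, 6179 to 10774 in those without, 1970 to 13058 in the tumours and 97.7 to 187 in kidney. Of the markers of other cell types, the proximal tubule list summed to 173885 to 212657 units in kidney and 1521 to 10199 in tumours, the loop and distal tubule list to 65022 to 148422 and 2.5 to 5523 units, and the endothelial list to 2289 to 4077 and 138 to 1372 units. The fibroblast list summed to 625 to 2019 units in kidney and 279 to 4537 in tumours. The leukocyte list, of which 5 of 6 genes were in the table, summed to 582 to 902 units in kidney and 1799 to 13475 in tumours. The part of these cell types in the results below was not tested, and in such bulk samples fewer cells of a type and less RNA per cell cannot be told apart. In every group at least 5 of the 6 renal epithelium markers were above the floor in all libraries. Their summed level was lower with Dox in each line, at 11562 to 13064 units with and 17439 to 18352 without in MYC, 5740 to 5865 and 13159 to 13606 in VM, and 5938 to 6073 and 10358 to 11091 in VIM cells. The fibroblast list was also lower with Dox, at most 113 units against at least 437 in MYC cells, 4.3 against 21.2 in VM and 12.5 against 43.9 in VIM cells.

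Compared per kb of exon, Eef1a1, which encodes the main tRNA-delivering factor eEF1A1, had the highest level in all 10 groups and Eef2 the next. The length was that of all annotated exons of a gene joined, which can exceed that of the mRNA expressed. Levels per kb, and ratios of genes made from them, are therefore approximate. Eef1a1 alone made up 25.83% of the units of the 60 genes in MYC cells with Dox and 25.85% in those without. Its part was 23.83% with Dox and 25.93% without in VM cells, 22.14 and 25.85% in VIM cells, 30.68% in kidney and 34.99 to 43.8% over the tumour types. Its level was 46084 units per kb in MYC cells with Dox, followed by Eef2 with 17216, Eif5a with 13900 and Eif3h with 4352, and the median of the 60 genes was 905.5 units per kb. Many processed copies of Eef1a1 lie in the genome, so reads could be divided between them and its level is uncertain.

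Cells with and without Dox were compared in each line to ask which genes differed between the 2 conditions. The paper describes lines derived and passaged in Dox and then plated with or without it for RNA. A rise with Dox is thus a higher level in cells kept on Dox than in cells taken off it. A gene is said to have risen or fallen where limma with Benjamini-Hochberg adjustment over all genes gave an adjusted p under 0.05, and to have passed where the change also exceeded 1 on the log2 scale. In MYC cells 48 of 59 tested translation factors rose with Dox and 2 fell, where 31.5% and 44% of all tested genes rose and fell. In VM cells 48 of 57 rose and 4 fell, beside 26.1% and 47.7% of all genes. In VIM cells 49 of 58 rose and 3 fell, beside 31.1% and 44.2%. Most of the changes were small, with a median log2 change of 0.31, 0.49 and 0.51 in MYC, VM and VIM cells, where the medians of all genes averaging 50 units or more were −0.06, −0.17 and −0.09. Of 57 translation factors tested in all 3 lines, 44 rose in each of them, beside 22.5% of all genes.

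Fewer genes passed the fold threshold as well. In MYC cells 1 translation factor passed downward, beside 15% of all genes, and none upward, beside 4.49%. Voom on estimated reads gave the same counts, and 50 of the 59 had an unadjusted p under 0.05. The gene that passed was Eif4ebp3, a minor eIF4E-binding protein, with 3.56, 0, 0 and 3.33 units with Dox and 6.52, 4.46, 3.42 and 6.57 without, so the groups overlapped close to the floor. In VM cells 7 passed upward and none downward, beside 5.92% and 18.9% of all genes, and in VIM cells 7 passed upward and 1 downward, beside 7.67% and 16.6%. Voom also gave 7 upward and none downward in VM cells, where 53 of the 57 had an unadjusted p under 0.05. Eif3i, Eif3j, Eif5a, Eef1d, Eef1e1 and Eif1ad passed in both VM and VIM cells, which is 6 of 57, beside 4.8% of all genes. Eif2b3 passed in VM cells only by this threshold, with log2 changes of 0.75, 1.20 and 0.98 in MYC, VM and VIM cells. The counts depended on the scaling: after TMM rescaling 14 passed upward in VM cells, beside 1362 of all 14318 genes. The medians of the translation factors then became 0.44, 0.73 and 0.67, while the medians of all tested genes moved from −0.13, −0.26 and −0.15 to −0.01, −0.04 and −0.01.

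**Figure D2:**
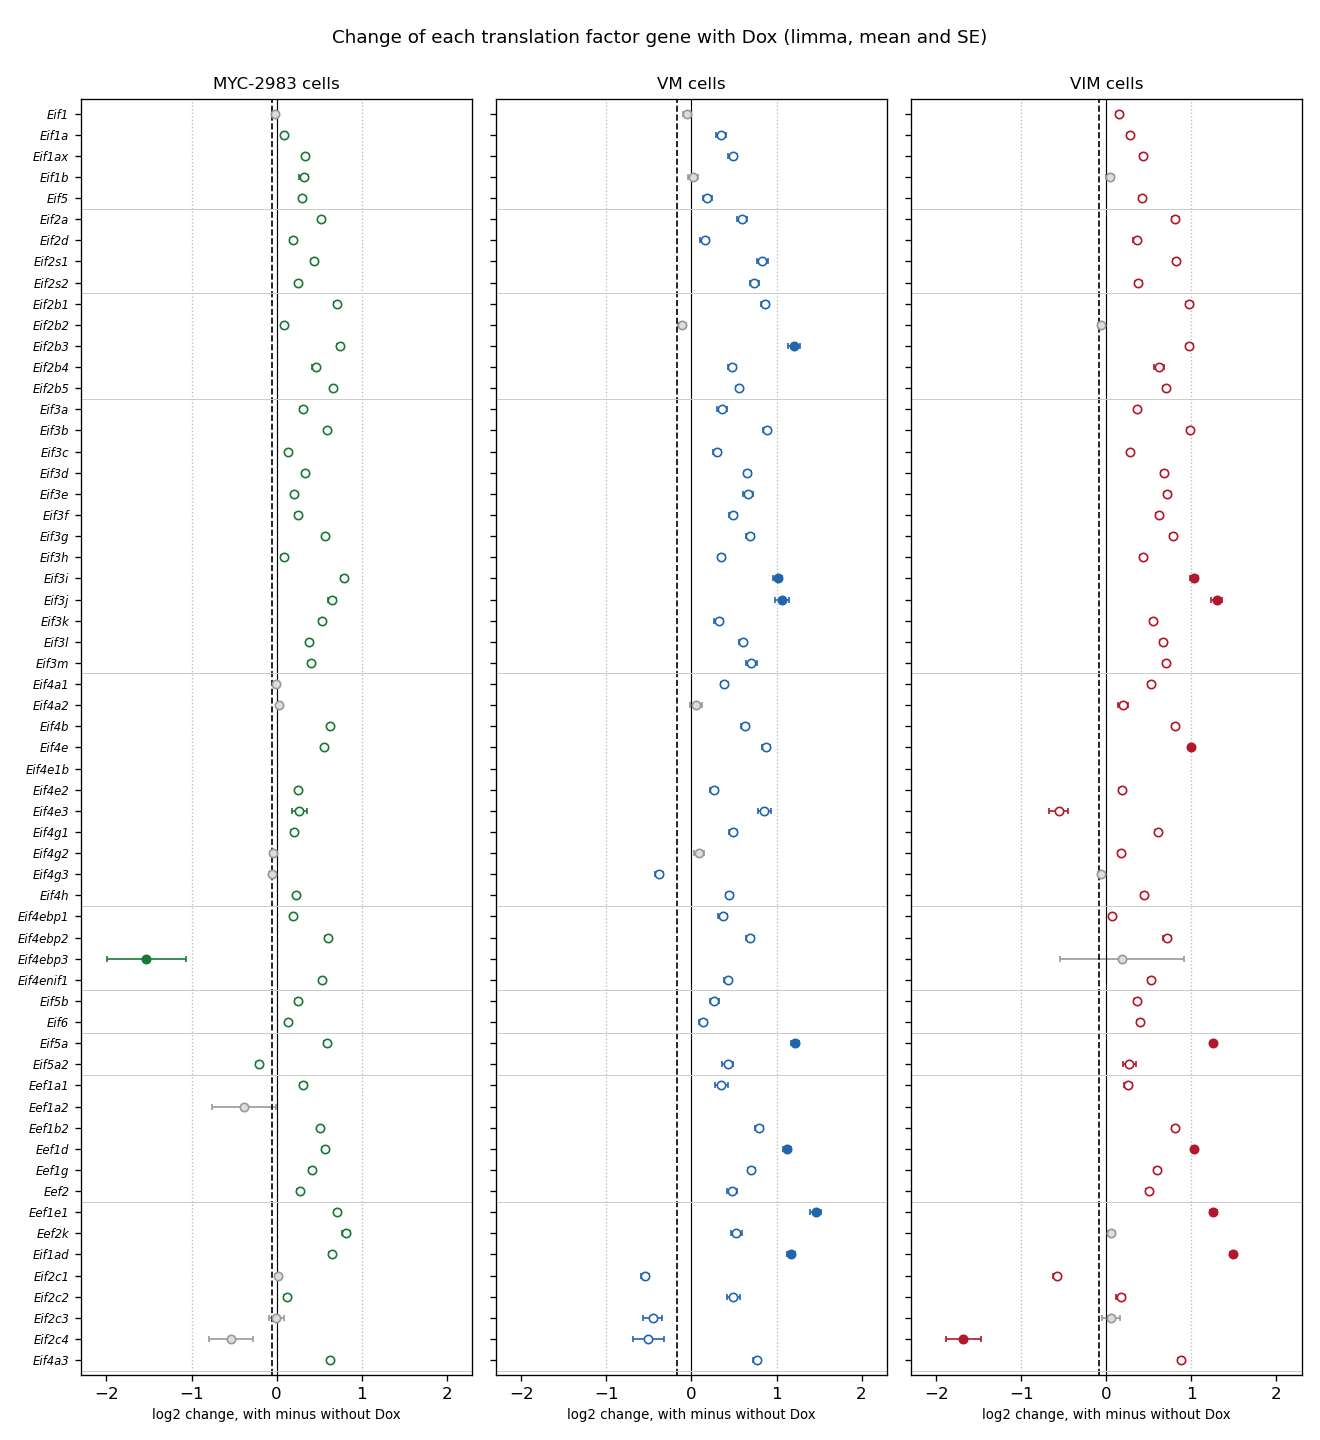
The log2 change with Dox (horizontal axis, log2 of value + 1) of each translation factor in MYC, VM and VIM cells, grouped by role, with bars for the standard error. Filled points passed both thresholds, open coloured points had an adjusted p under 0.05 only and grey points neither, the dashed line is the median of genes averaging 50 units or more, and most points lie to the right of it in all 3 lines.

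Eif5a, which encodes the hypusine-bearing factor eIF5A, had the highest level per kb of the genes that passed with Dox. Its levels in MYC cells were 32503, 34291, 32836 and 32527 units with Dox and 21436, 21443, 22457 and 22553 without. In VM cells they were 29286, 29181, 29487 and 29741 with Dox and 12674, 12828, 12762 and 12470 without. VIM cells had 26224, 25136, 25350 and 25992 units with Dox and 10819, 10707, 10483 and 10904 without. The groups with and without Dox were far apart in every line, and the VM and VIM levels without Dox were near one another and below those of MYC cells. The log2 change was 0.59 ± 0.03 (SE) in MYC, 1.21 ± 0.05 in VM and 1.26 ± 0.03 in VIM cells (limma, adjusted p = 5.53e-12, 1.06e-13 and 4.56e-19). The change was larger by 0.63 in VM and by 0.67 in VIM than in MYC cells (limma interaction, adjusted p = 2.62e-09 and 1.79e-11). After quantile normalization Eif5a also passed in MYC cells. Its paralogue Eif5a2 was at most 1055 units in any cell library and behaved differently, with log2 changes of −0.20 in MYC, 0.43 in VM and 0.27 in VIM cells.

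Eef1e1, whose product is an accessory protein of the tRNA synthetase complex rather than an elongation factor, had the largest change in VM cells. Its levels there were 1975, 1939, 2089 and 2172 units with Dox and 683, 861, 752 and 685 without, with no overlap. VIM cells had 1886, 1976, 1928 and 1799 units with Dox and 765, 826, 820 and 760 without. MYC cells had lower levels with Dox, 1205, 1205, 1165 and 1226 units, against 774, 683, 728 and 742 without. The levels without Dox lay in one range across the lines, and those with Dox were higher in VM and VIM than in MYC cells. The log2 changes were 0.71 ± 0.04, 1.46 ± 0.07 and 1.26 ± 0.04 in MYC, VM and VIM cells (limma, adjusted p = 2.3e-12, 9.43e-13 and 2.83e-17).

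Eif1ad, named for a domain shared with eIF1A, had the largest rise in VIM cells. Its levels were 2336, 2358, 2291 and 2371 units with Dox and 854, 826, 805 and 851 without. Neither of the other lines reached these levels, with 1757 to 1843 units in VM and 1667 to 1737 in MYC cells with Dox. The log2 change in VIM cells was 1.49 ± 0.03 (limma, adjusted p = 1.3e-19), compared with 0.65 in MYC and 1.17 in VM cells. Eef1d, a subunit of the exchange factor that recharges eEF1A, had 3837, 3702, 3620 and 3727 units in VM cells with Dox and 1616, 1751, 1788 and 1674 without. The 2 groups were again separate, with a log2 change of 1.12 ± 0.04, beside 1.03 in VIM and 0.57 in MYC cells.

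The eIF3 subunits moved together. All 13 rose with Dox in each of the 3 lines, beside 22.5% of all genes. Their medians were 0.38, 0.66 and 0.68 in MYC, VM and VIM cells. The ends of the range in MYC cells were Eif3h at 0.08 and Eif3i at 0.79. Eif3j and Eif3i passed in VM and VIM cells. Eif3j, a loosely bound subunit, had 1094, 1107, 1340 and 1180 units in VM cells with Dox and 555, 666, 517 and 520 without. In VIM cells it had 545, 625, 617 and 575 units with Dox and 237, 221, 270 and 232 without, so its levels with Dox in VIM cells were within the range of VM cells without Dox. Its log2 changes were 1.07 and 1.30. The gene overlaps Spg11 on the other strand and has a near-identical copy in the mouse, so its level is uncertain. Eif3i had 4177, 3854, 3946 and 4223 units in VM cells with Dox and 1893, 2022, 2193 and 1929 without, and its log2 changes in MYC, VM and VIM cells were 0.79, 1.01 and 1.03. Eif3a, the largest subunit, rose by 0.31, 0.36 and 0.37.

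Among the factors that carry the initiator tRNA, all 4 genes rose in every line, beside 22.5% of all genes. Eif2s1, the alpha subunit of eIF2 that the stress kinases phosphorylate, averaged 6587 ± 193 units (SD, n = 4) in VM cells with Dox and 3711 ± 417 without, and 4409 ± 202 and 2494 ± 93.1 in VIM cells. In MYC cells it averaged 4120 ± 209 and 3028 ± 133. In the eIF2B complex Eif2b1, Eif2b3, Eif2b4 and Eif2b5 rose in all 3 lines. Eif2b2 rose in MYC cells, with a log2 change of 0.09, and had −0.11 in VM and −0.06 in VIM cells, which did not pass the test. Eif2b5, which holds the catalytic site, averaged 3086 ± 54.5 units with Dox and 1946 ± 74 without in MYC cells, 2710 ± 78.8 and 1839 ± 30.4 in VM cells, and 2898 ± 74.8 and 1787 ± 25.2 in VIM cells. Eif2b3 had 881, 888, 977 and 936 units in VM cells with Dox and 381, 462, 411 and 350 without. The 5 start codon genes had medians of 0.30, 0.19 and 0.28. Eif1, whose product scans for the codon, averaged 6184 ± 206 and 6274 ± 117 units in MYC cells and 4646 ± 163 and 4824 ± 254 in VM cells with and without Dox, which did not pass the test in either. In VIM cells Eif1 rose, with 4942 ± 89.8 units with Dox and 4465 ± 96.4 without. The close paralogue Eif1b rose in MYC cells only by this test, from 307 ± 10.9 to 383 ± 20 units, and the difference of its change from that in MYC cells was −0.30 in VM and −0.27 in VIM cells. Eif5 rose in each line, with means of 9310 ± 131, 11165 ± 477 and 8124 ± 303 units with Dox.

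The cap-binding and helicase genes were less uniform. Eif4e, the cap-binding protein and the limiting part of eIF4F, had 3716, 3825, 3861 and 3705 units in VIM cells with Dox and 1879, 1926, 1876 and 1868 without. In VM cells it had 5542, 5386, 5784 and 5804 units with Dox and 3032, 3320, 2998 and 2902 without. MYC cells had 4367, 4419, 4375 and 4419 units with Dox and 3105, 2897, 2978 and 2950 without. The groups did not overlap in any line, and VM cells with Dox had the highest levels. The log2 changes were 0.56 ± 0.03, 0.88 ± 0.05 and 1.0003 ± 0.03 in MYC, VM and VIM cells, and the last lay so close to the threshold of 1 that it fell under it in 6 alternatives.

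Eif4e3, a cap-binding paralogue, moved in different directions. It had 275, 295, 286 and 300 units in VM cells with Dox and 150, 176, 150 and 160 without. In VIM cells the order was turned, with 83.3, 107, 102 and 80 units with Dox and 142, 125, 150 and 131 without. Both pairs of groups were separate. MYC cells had 93.9, 83.2, 95.4 and 99.1 units with Dox and 72.8, 76.3, 75.8 and 82.2 without. The log2 changes were 0.27, 0.86 and −0.56 in MYC, VM and VIM cells, and the VIM change differed from that of VM cells by −1.42 ± 0.14 (limma interaction, adjusted p = 5.93e-08). The gene overlaps Foxp1 on the same strand, so reads of the shared stretch cannot be assigned with certainty. Eif4e2, the third expressed member, rose in every line, with means of 2195 ± 41.1, 1812 ± 77.9 and 1882 ± 71 units with Dox and 1840 ± 46.9, 1503 ± 66.6 and 1662 ± 20.9 without.

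The paralogues of the helicase and the scaffold also differed. Eif4a1, the usual eIF4A of growing cells, rose in VM and VIM cells with log2 changes of 0.39 and 0.52, and had −0.01 in MYC cells (limma, adjusted p = 0.74). Eif4a2 had 0.03, 0.05 and 0.20, of which the last passed the test although its groups overlapped. The ratio of Eif4a1 to Eif4a2, in units per kb, was 1.496 to 1.699 in MYC cells with Dox and 1.51 to 1.72 without, 1.38 to 1.60 and 1.05 to 1.27 in VM cells, and 0.94 to 1.18 and 0.76 to 0.86 in VIM cells. Eif4g3, a scaffold paralogue, fell by 0.39 on the log2 scale in VM cells. Eif4g1 had 14.9 to 15.9 times the units per kb of Eif4g3 in VM cells with Dox and 8.04 to 8.41 times without. Eif4g2, a scaffold that lacks the eIF4E-binding site, averaged 24470 to 28945 units over the 6 groups of cells.

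**Figure D3:**
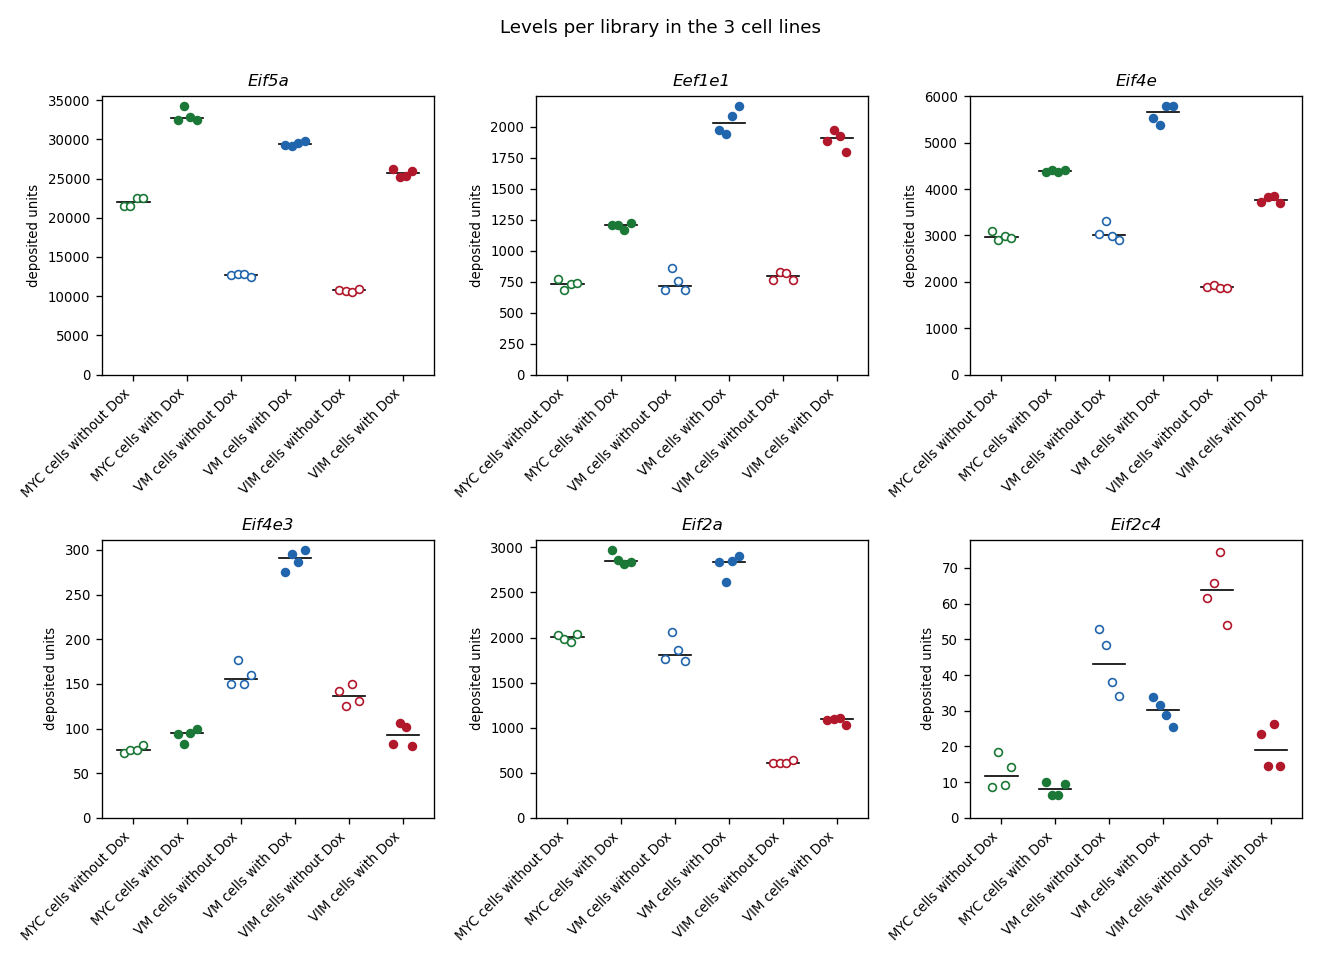
Levels in units (vertical axes, each with its own range) of Eif5a, Eef1e1, Eif4e, Eif4e3, Eif2a and Eif2c4 in each library of MYC, VM and VIM cells, with Dox as filled and without Dox as open points and the group median as a line. Eif4e3 was higher with Dox in VM cells (275 to 300 against 150 to 176 units) and lower in VIM cells (80 to 107 against 125 to 150 units).

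Of the eIF4E-binding proteins, which compete with eIF4G for eIF4E, Eif4ebp2 rose from 723 ± 20.3 to 1098 ± 50.1 units in MYC, from 618 ± 9.28 to 997 ± 39.3 in VM and from 691 ± 46.8 to 1129 ± 47.1 in VIM cells. Eif4ebp1 rose much less, with log2 changes of 0.20, 0.37 and 0.07. Its ratio to Eif4e, in units per kb, was 4.08 to 4.41 in VIM cells without Dox and 2.17 to 2.27 with Dox. The ratio was also lower with Dox in the other lines. It was 2.03 to 2.24 without and 1.61 to 1.73 with Dox in MYC cells, and 1.14 to 1.49 and 0.874 to 0.995 in VM cells. Eif4enif1, which shuttles eIF4E into the nucleus, rose by 0.54, 0.42 and 0.52. Eif6 and Eif5b also rose in all 3 lines, with log2 changes of at most 0.40.

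Genes that the symbol pattern caught for their names but that act elsewhere had mixed changes. Eif4a3, a helicase of the exon junction complex, rose in all lines and averaged 3758 ± 87.6 units with Dox and 2420 ± 57.1 without in MYC cells. The Eif2c genes encode Argonaute proteins of RNA silencing. Eif2c4 had 23.6, 14.6, 26.2 and 14.5 units in VIM cells with Dox and 61.7, 65.8, 74.5 and 53.9 without, with no overlap. In VM cells it had 34, 31.5, 28.9 and 25.4 units with Dox and 52.9, 48.5, 38 and 34.2 without, also separate. In MYC cells it had 10.1, 6.53, 6.5 and 9.43 units with Dox and 8.53, 18.4, 9.26 and 14.1 without, which overlapped. The log2 change was −1.69 ± 0.20 in VIM and −0.51 ± 0.18 in VM cells (limma, adjusted p = 1.61e-07 and 0.0168), and −0.54 in MYC cells did not pass (adjusted p = 0.0659). Under quantile normalization the sign in VM cells turned. The VIM change was lower than those of MYC and VM cells by −1.15 and −1.18 (limma interaction, adjusted p = 0.01 and 0.00306). Eif2c1 fell in VM and VIM cells, with −0.55 and −0.59, and had 0.01 in MYC cells. Eef2k, the kinase that inhibits eEF2, rose in MYC and VM cells by 0.82 and 0.53 and had 0.06 in VIM cells (adjusted p = 0.282).

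Promoters of these genes were searched for the E-box CACGTG, which reads the same on both strands, from 250 bases before to 50 after each annotated start of RefSeq on GRCm38.p6. The table held such a stretch for 46 of the 60 genes, and 12 of them (26.1%) held the E-box, compared with 8.09% of all 27025 genes in the promoter table. That larger set was not limited to genes expressed in these samples, so the 2 shares are not like for like. They were Eif1b, Eif3a, Eif3f, Eif3k, Eif4a1, Eif4e, Eif4g1, Eif4h, Eif5a, Eif5a2, Eef2 and Eef2k. Of these 12 genes, 8 rose with Dox in all 3 lines, as did 26 of the 34 whose stretch lacked the E-box and 10 of the 14 with no entry. The stretches around it are shown for Eif4h and the eIF4F genes that have it upstream of the start, for Eef2 and for Eif5a2. The last has a pair of E-boxes and did not rise in MYC cells. Capitals mark the E-box, and each stretch is written 5′ to 3′ on the strand of its gene. The stretches are chr3:138527024-138527219 (plus strand) for Eif4e, chr11:69672583-69672642 (minus) for Eif4a1, chr16:20672643-20672702 (plus) for Eif4g1, chr5:134639476-134639535 (minus) for Eif4h, chr10:81176558-81176617 (plus) for Eef2 and chr3:28781115-28781184 (plus) for Eif5a2.
Eif4e: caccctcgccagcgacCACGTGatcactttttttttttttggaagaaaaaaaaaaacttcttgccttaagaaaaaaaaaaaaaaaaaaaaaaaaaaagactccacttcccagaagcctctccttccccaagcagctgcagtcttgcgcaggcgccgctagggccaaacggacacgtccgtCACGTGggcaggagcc
Eif4a1: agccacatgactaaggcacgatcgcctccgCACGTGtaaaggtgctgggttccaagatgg
Eif4g1: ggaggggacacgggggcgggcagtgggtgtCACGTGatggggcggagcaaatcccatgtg
Eif4h: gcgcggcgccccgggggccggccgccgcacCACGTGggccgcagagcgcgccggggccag
Eef2: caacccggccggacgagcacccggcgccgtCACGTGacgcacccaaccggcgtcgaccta
Eif5a2: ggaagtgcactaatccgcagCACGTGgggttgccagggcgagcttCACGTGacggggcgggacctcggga
The E-box began 228 and 64 bases before the start in Eif4e, 189 in Eif4a1, 54 in Eif4g1, 96 in Eif4h, 43 in Eef2, and 142 and 117 in Eif5a2. These distances are from the RefSeq start. Each stretch matched the mm9 genome once, with no annotated exon over it. In the mm9 annotation 2 of the stretches lay inside their gene. The Eif4e stretch began at 138189988 and the gene at 138189155, and the Eif4g1 stretch began at 20672716 and the gene at 20668386. Eif4e, Eif4g1, Eif4h and Eef2 rose with Dox in all 3 lines, with log2 changes of 0.27, 0.48 and 0.50 for Eef2 and of 0.23, 0.45 and 0.44 for Eif4h in MYC, VM and VIM cells.

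The change with Dox was then compared between lines. It was larger in VM than in MYC cells for 33 of 59 translation factors and smaller for 7, beside 17.5% and 28.7% of all tested genes. None of these differences exceeded 1 and passed, by limma or by voom, beside 8.78% of all genes, although 43 had an unadjusted p under 0.05. In VIM cells the change was larger than in MYC cells for 36 and smaller for 7, beside 23.9% and 23.6%, and only Eif2c4 passed the fold threshold too, beside 9.06% of all genes. Between VIM and VM cells it was larger for 12 and smaller for 7 of 58, beside 22.8% and 10.5%. After TMM rescaling it was larger for 3 and smaller for 17, beside 1876 and 2810 of all 15179 genes. With the replicate number as a block it was larger for 9 and smaller for 6, beside 3035 and 1402. Eif4e3 and Eif2c4 passed, beside 6.05% of all genes. Of the eIF3 genes, 11 of 13 changed more in VM than in MYC cells and 11 of 13 in VIM than in MYC cells. These comparisons share the libraries of each line.

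With Dox in every culture, the lines themselves were compared to see how levels differed with genotype, although each genotype was 1 line. In VM cells 18 of 57 translation factors were higher and 28 lower than in MYC cells, beside 26.7% and 49.9% of all genes. After TMM rescaling 27 were higher and 16 lower, beside 5190 and 5890 of all 14779 genes, so the balance depended on the scaling. In VIM cells 20 of 58 were higher and 31 lower than in MYC cells, beside 26.4% and 49.7%. After TMM rescaling these were 26 and 20, beside 5253 and 5939 of all 14685 genes. Compared with VM cells, 21 of 57 were higher and 22 lower in VIM cells, beside 35.1% and 32.4%. Few passed the fold threshold, with 2 for VM against MYC, 4 for VIM against MYC and 3 for VIM against VM, beside 24.6%, 23.9% and 19.1% of all genes in either direction.

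The genes that passed were Eif2a, Eif5a2, Eif4e3, Eif4g3 and Eif2c4. Eif2a, which can deliver the initiator tRNA without eIF2, had 1084, 1099, 1109 and 1032 units in VIM cells with Dox. MYC cells had 2965, 2862, 2811 and 2840 units and VM cells 2837, 2611, 2847 and 2898. VIM cells were separate from both, whereas the other lines overlapped. The log2 difference was −1.41 ± 0.03 from MYC and −1.37 ± 0.04 from VM cells (limma, adjusted p = 3.19e-14 and 1.91e-14). VIM cells without Dox were lower too, with 605 to 641 units against 1948 to 2034 in MYC and 1736 to 2065 in VM cells. The gene overlaps Serp1 on the other strand, and the sources used here do not give whether strand was used in counting. VIM tumours did not share the low level, with 3266, 2706 and 6493 units.

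Eif5a2 had 298, 342, 364 and 330 units in VIM cells with Dox, compared with 711, 738, 687 and 699 in MYC and 942, 966, 1055 and 968 in VM cells. The 3 lines did not overlap, and the log2 difference of VIM cells was −1.09 from MYC and −1.56 from VM cells. The first missed the fold threshold after TMM rescaling and quantile normalization, with −0.94 and −0.96. Eif4e3 was 1.63 higher in VM than in MYC cells and −1.64 in VIM relative to VM cells on the log2 scale. Eif4g3 was 1.04 higher in VIM than in MYC cells, with 2775, 2763, 2730 and 2885 units against 1273, 1351, 1449 and 1340. Eif2c4 was 1.78 and 1.16 higher in VM and VIM than in MYC cells, where it was close to the floor. Over the alternatives these differences ran from 1.14 to 2.77 and from 0.70 to 2.19, and the VIM call was lost with a pseudocount of 10.

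Tumours were compared with normal kidney to see which of these genes differed in the tissue. In MYC tumours 39 of 58 translation factors were higher and 4 lower than in kidney, beside 27.3% and 24.2% of all genes, and 22 and 1 passed the fold threshold, beside 18.7% and 18.5%. In VM tumours 41 of 58 were higher and 6 lower, beside 25.7% and 29%, and 31 and 2 passed, beside 17.3% and 22.5%. In VIM tumours 43 of 59 were higher and 4 lower, beside 25.5% and 26.2%, and 34 and 2 passed, beside 18.9% and 20.7%. The count of 4 lower genes rested on single libraries, with 0 without library 1 of the VIM tumours, 6 without library 2, 2 without library 3 and 1 or 2 without any 1 kidney. The median log2 difference was 0.94, 1.13 and 1.22 in MYC, VM and VIM tumours, where genes averaging 50 units or more had 0.08, −0.01 and 0.02. With only the B6 kidneys 24, 29 and 24 passed upward in MYC, VM and VIM tumours and 1, 0 and 0 downward. Of all 16166, 16066 and 16139 genes tested, 2893, 2569 and 2531 passed upward and 2637, 2957 and 2420 downward. With only the KT kidneys 28, 33 and 36 passed upward and 1, 0 and 0 downward. Of all 16368, 16316 and 16390 genes tested, 2593, 2582 and 2788 passed upward and 2751, 3425 and 3161 downward. The 3 comparisons share the kidneys.

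**Figure D4:**
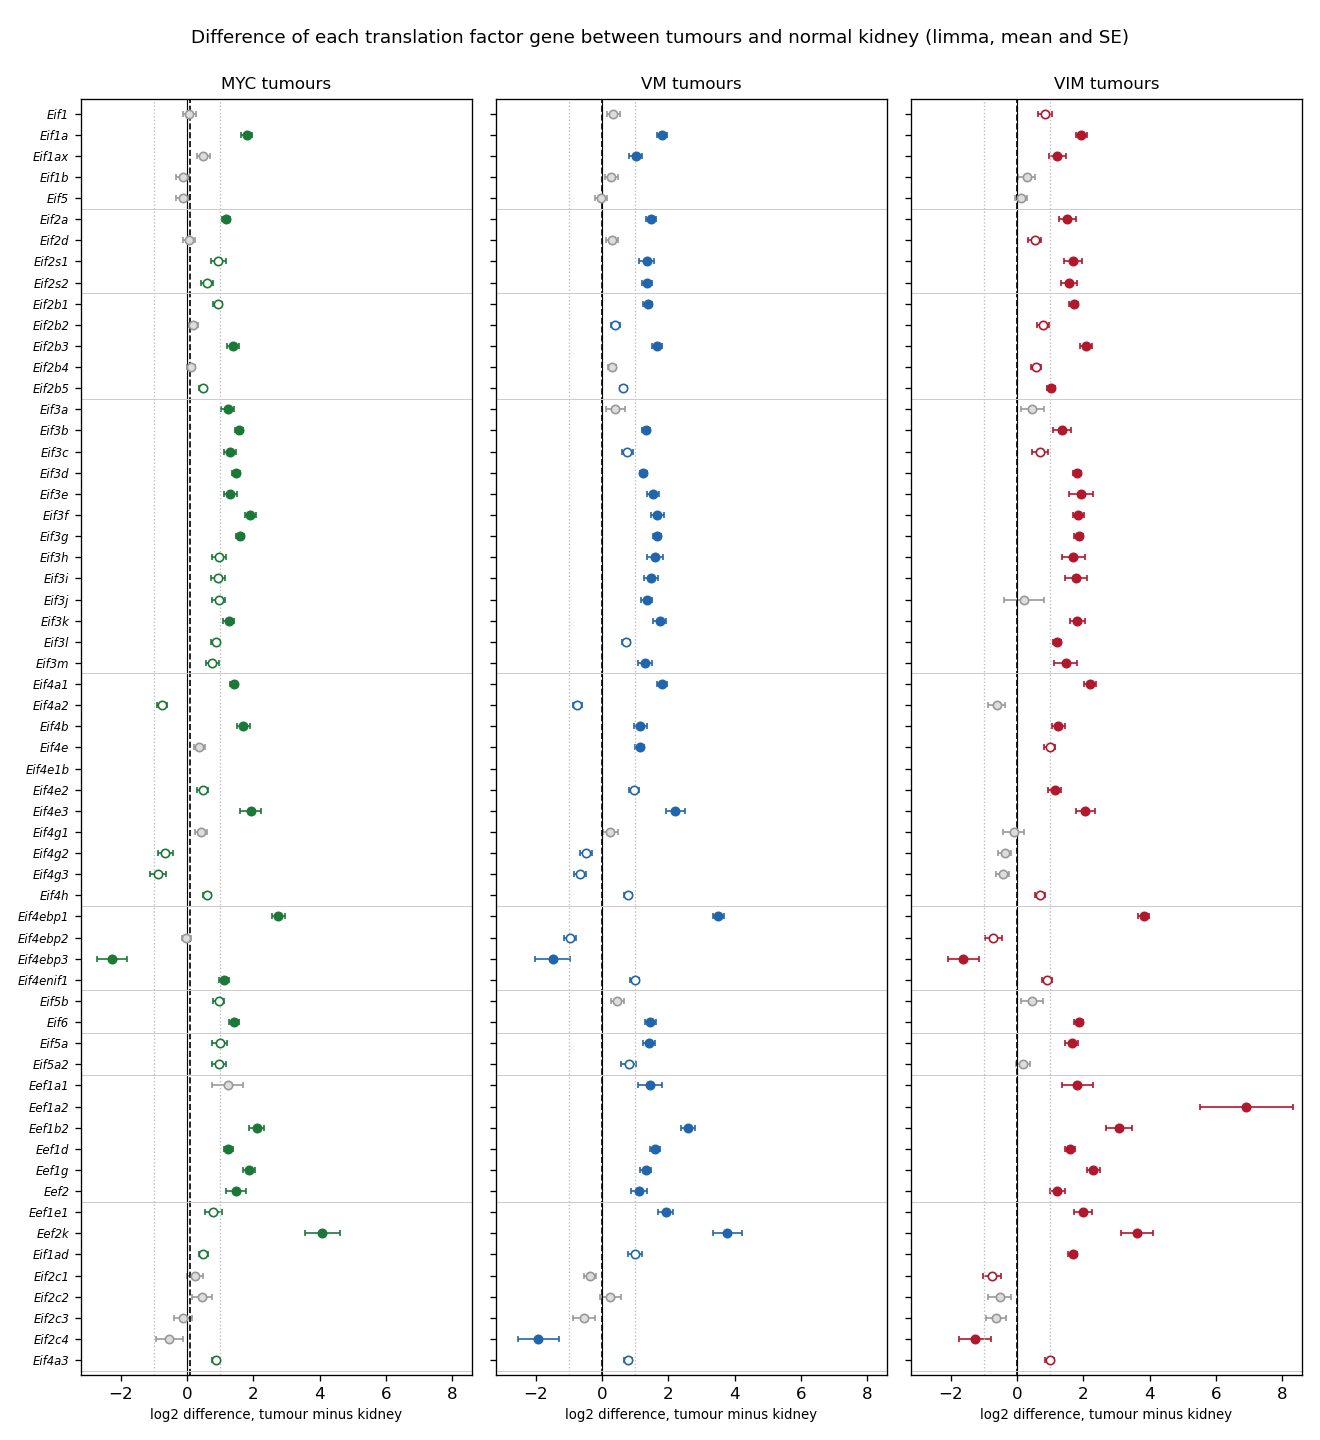
The log2 difference from normal kidney (horizontal axis, log2 of value + 1) of each translation factor in MYC, VM and VIM tumours, grouped by role, with bars for the standard error and symbols as in the plot of Dox changes. Eif4ebp1 and Eef2k lie between 2.76 and 4.08 in all 3 types, and the point of Eef1a2 in VIM tumours is fitted against kidneys at 0 and is no bound.

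Apart from Eef1a2, the largest log2 differences among the translation factors were those of Eif4ebp1 and Eef2k, which encode regulators of the factors. Eif4ebp1 had 171, 178, 205, 166 and 168 units in kidney. MYC tumours had 1043, 1515 and 1281, VM tumours 2549, 1767 and 1874, and VIM tumours 2721, 2006 and 2924 units. Every tumour lay far above every kidney. The log2 differences were 2.76 ± 0.18, 3.52 ± 0.17 and 3.82 ± 0.17 in MYC, VM and VIM tumours (limma, adjusted p = 1.98e-05, 2.78e-07 and 1.03e-06), which is 6.77, 11.4 and 14.1 times the kidney level. Eif4e, the protein it binds, was 0.37, 1.14 and 0.99 higher, of which the first did not pass the test (adjusted p = 0.0975). The ratio of Eif4ebp1 to Eif4e, in units per kb, was 0.24 to 0.31 in kidney and 1.23 to 2.28 in the tumours. Eif4ebp2 ran the other way in VM and VIM tumours, with 685 ± 198 and 852 ± 406 units (SD, n = 3) against 1301 ± 129 in kidney (n = 5), both past the adjusted p. The VIM libraries had 508, 1299 and 749 units, and 1299 lay in the kidney range of 1142 to 1446.

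Eef2k had 29.4, 70.1, 28.1, 21.2 and 63.3 units in kidney. The tumours had 516, 861 and 818 in MYC, 636, 386 and 617 in VM and 544, 752 and 270 in VIM. All tumours were above all kidneys, and the log2 differences were 4.08 ± 0.52, 3.78 ± 0.44 and 3.63 ± 0.49 (limma, adjusted p = 0.000399, 6.45e-05 and 0.000206). Its levels in tumours were in the range of the cell lines, 326 to 659 units, apart from 3 tumours above and 1 below it. Its substrate Eef2 was 1.47, 1.12 and 1.22 higher than in kidney.

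Of the elongation factors 4 of 5, 5 of 5 and 6 of 6 tested genes passed upward in MYC, VM and VIM tumours, beside 18.7%, 17.3% and 18.9% of all genes. Eef1b2, of the eEF1A exchange factor, had 6465, 4136, 5562, 3814 and 4305 units in kidney and 21591, 20125 and 18630 in MYC, 36265, 22810 and 28851 in VM and 40605, 20218 and 79570 in VIM tumours. The last of these was library 3. The log2 differences were 2.10 ± 0.23, 2.60 ± 0.22 and 3.08 ± 0.39. Eef1a1 had 61723 to 89498 units in kidney and 140112 to 490856 in the tumours, the highest again in library 3 of the VIM tumours, with log2 differences of 1.22 in MYC (adjusted p = 0.0618), 1.45 in VM and 1.82 in VIM tumours. The VM and VIM calls of Eef1a1 were lost with only the B6 kidneys, at 1.17 and 1.53, and the VM call also with a pseudocount of 10. In VIM tumours 36 genes passed with all libraries, 33 without library 3, 41 without library 2 and 36 without library 1. The libraries of tumours and kidney differed in how genes of different length were covered. The median of genes under 3 kb minus that of genes over 5 kb, as deviations from the group mean on the log2 scale, ran from −0.51 in VIM tumour library 2 to 0.42 in library 3, compared with −0.07 to 0.09 in the cells. Its part in the tumour results was not tested.

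Eef1a2, the eEF1A isoform of muscle and neurons, was 0 units in all 5 kidneys and had 458, 836 and 3.67 units in VIM tumours. The last value lay under the floor of that library, 5.51 units, so the gene was detected in 2 of 3 VIM tumours. The mean of all 3 VIM tumours, 432 units, was 97.1 times the mean floor of 3 reads per kidney library. That value is a lower bound of the fold over kidney. With only the B6 kidneys the gene did not pass the test. MYC tumours had 0, 6.17 and 0 units and VM tumours 0, 0 and 1.23.

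**Figure D5:**
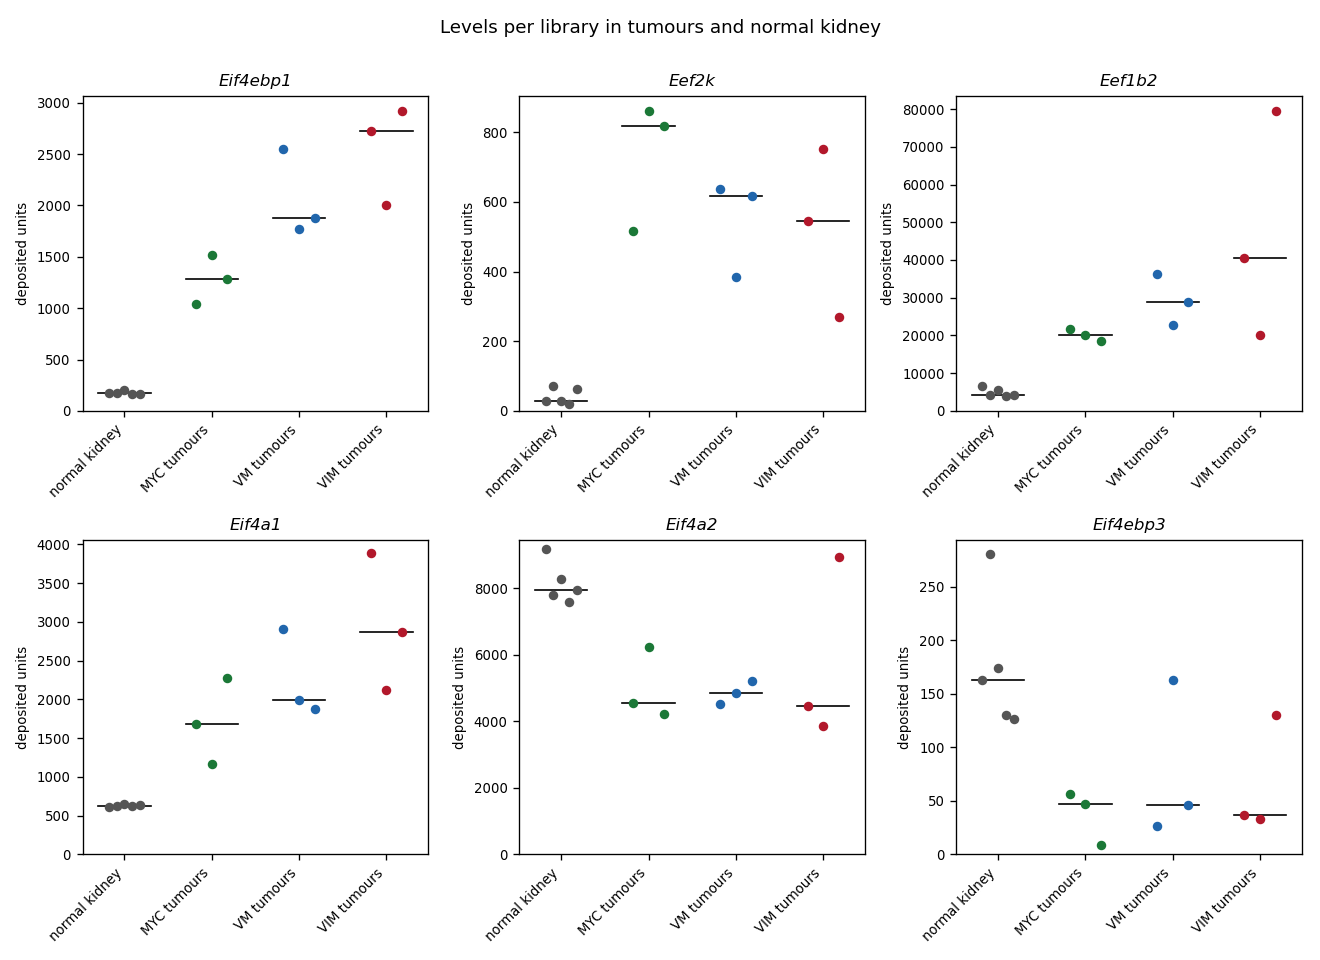
Levels in units (vertical axes, each with its own range) of Eif4ebp1, Eef2k, Eef1b2, Eif4a1, Eif4a2 and Eif4ebp3 in each library of normal kidney and of MYC, VM and VIM tumours, with the group median as a line. Eif4a1 was 612 to 645 units in kidney and 1165 to 3896 in the tumours, whereas Eif4a2 was 7598 to 9192 units in kidney and at most 6228 in the tumours other than library 3 of VIM, which had 8936.

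The eIF4A helicases differed from kidney in opposite directions. Eif4a1 had 612, 618, 645, 622 and 630 units in kidney, 1679, 1165 and 2282 in MYC, 2911, 1991 and 1871 in VM and 3896, 2120 and 2873 in VIM tumours. Its log2 differences were 1.40, 1.82 and 2.20 (limma, adjusted p = 4.38e-05, 9.48e-06 and 1.45e-05). Eif4a2 had 9192, 7788, 8285, 7598 and 7944 units in kidney, 4546, 6228 and 4231 in MYC, 4534, 4845 and 5203 in VM and 4455, 3858 and 8936 in VIM tumours. It was lower by −0.75 in MYC and VM tumours (limma, adjusted p = 0.00389 and 0.00084), and −0.60 in VIM tumours did not pass the test (adjusted p = 0.074), with 1 library in the kidney range. The ratio of Eif4a1 to Eif4a2, in units per kb, was 0.0821 to 0.101 in kidney, 0.23 to 1.08 in the tumours and 0.76 to 1.72 in the cells. Eif4g2 was lower in MYC and VM tumours, with 16729 and 18808 units on average against 26259 in kidney, a direction that turned under quantile normalization. Eif4g3 had log2 differences of −0.88, −0.68 and −0.43, of which the last did not pass.

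Among the eIF3 genes, 13, 12 and 11 of 13 were higher in MYC, VM and VIM tumours, beside 27.3%, 25.7% and 25.5% of all genes. The fold threshold was passed upward by 8, 10 and 10, beside 18.7%, 17.3% and 18.9%. Eif3f had log2 differences of 1.91, 1.67 and 1.85. Eif3e had 2004 to 3220 units in kidney and 6164, 6028 and 6028 in MYC, 8237, 6039 and 7300 in VM and 7273, 5900 and 19787 in VIM tumours. Eif3j was an exception in VIM tumours, with 736, 105 and 931 units against 276 to 418 in kidney, so that 1 library lay below all kidneys and the log2 difference was 0.21 ± 0.60. Eif1a, a copy of the start codon factor eIF1A, was 1.80, 1.81 and 1.94 higher in MYC, VM and VIM tumours, while Eif1, Eif1b and Eif5 did not pass in MYC or VM tumours. Eif6, which keeps the large subunit from joining early, had 1084 to 1439 units in kidney and 2687 to 5207 in the tumours, with log2 differences of 1.41, 1.46 and 1.86. Eif2b3 was 1.38, 1.65 and 2.10 higher and Eif2a 1.17, 1.47 and 1.52. Eif4e3, which was at 126 to 300 units in kidney and 460 to 921 in the tumours, was 1.92, 2.21 and 2.07 higher.

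Genes lower in tumours were few. Eif4ebp3 had 162, 280, 174, 131 and 127 units in kidney, 55.9, 46.7 and 8.53 in MYC, 26.6, 163 and 46.2 in VM and 36.5, 32.6 and 130 in VIM tumours. MYC tumours were below all kidneys, whereas VM and VIM tumours each had 1 library in the kidney range. The log2 differences were −2.27, −1.49 and −1.62, of which the VM and VIM calls were lost in 10 and 4 alternatives. The gene overlaps Ankhd1 on the same strand. Eif2c4 had 68.3 to 140 units in kidney, 71.9, 19.6 and 7.4 in VM and 49, 61.4 and 14.7 in VIM tumours, with log2 differences of −1.93 and −1.27 that were lost in 4 and 13 alternatives, and −0.53 in MYC tumours did not pass.

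A list of 34 other genes of the pathway, among them poly(A)-binding proteins, eIF2 alpha kinases, release factors and the enzymes that modify eIF5A and eEF2, was described in the same comparisons. With Dox 24, 21 and 22 rose in MYC, VM and VIM cells, beside 31.5%, 26.1% and 31.1% of all genes, and 5, 9 and 6 fell, beside 44%, 47.7% and 44.2%. The medians were 0.23, 0.24 and 0.33. Pabpc4, a poly(A)-binding protein, passed in all 3 lines with log2 changes of 1.22, 1.74 and 1.82, and Eif2ak3, the eIF2 alpha kinase of endoplasmic reticulum stress also called PERK, passed downward in all 3, with −1.40, −1.44 and −1.32. Dph2, of the diphthamide pathway that modifies eEF2, passed in VM and VIM cells with 1.09 and 1.14. Eif2ak2, the kinase activated by double-stranded RNA, passed downward in VM cells, with −1.15, and had −0.94 and −0.54 in MYC and VIM cells. Pabpc1 and the mitochondrial factor Gfm1 passed in VIM cells, with 1.13 and 1.12. Between lines Pdcd4, an inhibitor of eIF4A, was −1.64 in VIM relative to MYC cells and Mcts1 was 1.27 higher.

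In MYC, VM and VIM tumours 13, 14 and 14 of the 34 pathway genes were higher, beside 27.3%, 25.7% and 25.5% of all genes, and 5, 8 and 4 lower, beside 24.2%, 29% and 26.2%. The medians were 0.26, 0.12 and 0.39. The fold threshold was passed upward by 6, 6 and 8, beside 18.7%, 17.3% and 18.9% of all genes. Downward it was passed by 1, 2 and 1, beside 18.5%, 22.5% and 20.7%. Pabpc4 had log2 differences of 3.40, 2.79 and 2.78, Pabpc1 2.52, 2.15 and 1.91, Dph5 1.38, 1.87 and 2.08 and Dph2 1.66, 1.51 and 1.79, all of which passed. Mtor, the kinase whose complex phosphorylates the eIF4E-binding proteins, was lower in every tumour type, with −2.68, −2.13 and −2.005 (limma, adjusted p = 0.000105, 3.85e-05 and 0.000214), while its change with Dox in the cells was between −0.14 and 0.16. Mknk2, a kinase of eIF4E, passed downward in VM tumours with −1.16. Eif2ak3, which fell with Dox in the cells, passed upward in MYC tumours with 1.24, and had 0.53 in VM and 0.40 in VIM tumours, of which the last did not pass the test (adjusted p = 0.175).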

How the data were processed

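RNA from mouse tumours, normal kidneys and tumour cell lines was made into stranded mRNA libraries. The deposited values are a signal that the authors made with MapSplice, UBU and RSEM on UCSC knownGene transcripts, scaled to an upper quartile of 1000 per library. The submitters' processing notes name mm9, Picard 1.64 and SAMtools. The use of strand in counting is not given in the sources used here. The upper quartile lay between 998.6 and 1000. Reads were estimated from the worth of 1 read, and 94.1 to 95.9% of low values were then whole within 0.02. As not nearly all were whole, no test for counts was used as a main test, and voom on these estimated reads served as an alternative only. All columns were mapped to samples by their names.

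Groups were compared with limma 3.58.1 (R 4.3.3) on log2(value + 1) with a mean-variance trend, two-sided, so folds of low genes are understated. The groups compared entered each fit, and interactions used both lines. A gene was tested if above 0 in 4 libraries (2 for tumours). P-values were adjusted by Benjamini-Hochberg over all tested genes. Python 3.11.15, pandas 2.3.3 and matplotlib 3.10.9 were used, and fits were tested on simulated data. Gene positions follow the mm9 annotation, and promoters RefSeq.

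Same-numbered VM or VIM libraries correlated at −0.321 to 0.248 in their deviations from group means, which gave no sign of pairing by number. With 4 libraries per group such a check cannot exclude pairing, and MYC cells were not checked. Named genes were those with the highest mean and the largest change with Dox in each role, paralogue pairs, the 3 largest rises and falls that passed per comparison, and, of the pathway genes that passed, up to 3 in each direction per comparison. The genes and lists were chosen with earlier results of these data known. Alternatives were pseudocounts, filters, TMM, quantile normalization, voom on estimated reads, pooled fits, kidneys by title, the replicate block and each library left out.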

Additional observations from a re-analysis of the deposited data

Results flagged for a closer look

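Of 147 groups of 4 or 5 libraries tested for an outlying library by Dixon's test, 4 had one, and chance flags about 1 in 20. Eef1d had 3203 units in library 3 of MYC cells without Dox, where the others had 3405 to 3439. Eif2c4 had 140 units in library 5 of normal kidney, where the others had 68.3 to 83.1. Eif4ebp3 had 3.59 units in library 2 of VM cells with Dox and 2.57 in library 3 of VM cells without Dox, where the others were at 0, so both rest on very few reads. The change of Eif2c4 with Dox differed between lines, with a log2 difference of −1.15 for VIM minus MYC and −1.18 for VIM minus VM cells. The change of Eif4e3 differed by −1.42 for VIM minus VM cells, with every VM library higher with Dox and every VIM library lower.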

How the results depend on the processing

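Of 75 results on single genes, 57 kept their side of the threshold under every alternative and 18 missed it under some. Over their 1336 alternative values 1271 kept their call, 65 missed a threshold and none turned in direction. All 75 had passed both thresholds, so a turn was unlikely. Of genes called by adjusted p, 5 of 46 for VM against MYC and 7 of 51 for VIM against MYC cells turned sign after TMM rescaling. None of 43 did for VIM against VM cells, where Eef2 and Eif4g2 turned after quantile normalization and were still called. No Dox change called by adjusted p turned after TMM rescaling. Of 223 counts of passing genes, 214 stayed within 1.5 times of the reported count. The count in MYC cells, which is the call of Eif4ebp3, was 0 with a pseudocount of 10, with a mean of at least 10 units and with all 6 cell groups in one fit. After quantile normalization that call was lost too, and Eif5a passed in its place. The count in VM cells was 14 after TMM rescaling. For the Dox change of VIM minus MYC cells the count was 0 after quantile normalization, and for VIM minus VM it was 1 with a pseudocount of 10. The cause was not tested. Leaving out each library gave 1 to 1, 6 to 7 and 7 to 8 genes with Dox in MYC, VM and VIM cells, and 2 to 2, 4 to 4 and 3 to 4 for VM against MYC, VIM against MYC and VIM against VM cells. For tumours it gave 23 to 27, 31 to 35 and 33 to 41 in MYC, VM and VIM. For the differences of Dox changes it gave 0 to 1 for VM minus MYC, 0 to 1 for VIM minus MYC and 2 to 2 for VIM minus VM. The gene added in the first was Eif4ebp3, without library 1 of MYC cells with Dox or library 3 of VM cells without Dox, and the gene lost in the second was Eif2c4, without library 1 of MYC cells without Dox. With the replicate block the counts were 7 in VM and 8 in VIM cells, 3 for VIM against VM and 2 for their difference of Dox changes, the same as without it. By adjusted p alone, the higher and lower genes for this difference went from 12 and 7 to 9 and 6, and the higher genes for VIM against VM from 21 to 22. Calls of Eif2c4 in VIM tumours were lost in 13 alternatives and of Eif4ebp3 in VM tumours in 10. The depth limits Eif4ebp3 and Eef1a2 in cells, where levels were near the floor.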
